A study of Homo sapiens with 6 samples.

Results

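Glutathione, the main thiol antioxidant of the cell, is built from cysteine, glutamate and glycine, and most of the cysteine comes from cystine imported from outside. The 10 genes described here cover this path: the cystine transporter subunits SLC7A11 and SLC3A2, the synthesis enzymes GCLC, GCLM and GSS, the recycling enzyme GSR, the conjugating enzymes GSTP1, MGST1 and GSTM3, and the exporter ABCC1. They were chosen by gene symbol for these roles, with earlier results of these data known. All 10 were among the 22701 genes of the deposited table, and 8 of them were among the 10695 genes with a mean of at least 1 FPKM that were tested.

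FPKM is the number of sequenced fragments of a gene scaled by its length and by the depth of the library, so that levels can be compared between genes. The RNA came from LX-2, an established human hepatic stellate cell line, and was polyadenylated. The tested cells received TGF-β together with 20 µM LIG (ligustilide, a phthalide of Angelica and Ligusticum roots), and the comparison cells received TGF-β alone, with 3 libraries in each group. Per the labels, TGF-β was given at 5 µg/mL in both groups, a unit that could not be checked from the data and is far above the ng/mL range in which TGF-β is commonly used. Cells without TGF-β were not analysed here, so each difference is one between TGF-β-treated cells with and without LIG. The labels do not say whether replicates were separate cultures, and the p-values may therefore rest on technical spread alone. A pair of libraries, LIG replicate 3 and TGF-β replicate 2, stood apart from the rest of their groups in a way that followed gene length. Results of tested members that rest on them are given with and without them.

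System xc-, formed by SLC7A11 and SLC3A2, exchanges intracellular glutamate for extracellular cystine. Glutamate-cysteine ligase then joins glutamate and cysteine in the step that limits glutathione synthesis; its GCLC subunit holds the active site, and GCLM modifies its affinity for substrate and its feedback inhibition. Many genes of the path are known targets of the transcription factor NRF2, which binds antioxidant response elements in their promoters when its inhibitor KEAP1 is modified by electrophiles or oxidants. SLC7A11 is also known as a target of ATF4, the factor of the amino acid response.

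The antioxidant response element core, with the letters TGACNNNGC, was searched on both strands in RefSeq promoter windows (GRCh38.p14), each 250 bases before and 50 bases after an annotated start. Of the 10 genes, 6 had a window in that table and 4 of the 6 held the core in at least 1 window. SLC7A11, GSS, GSR and ABCC1 had no window there and were not searched for any motif. Of all 27305 genes in the table, 16.1% held it, and of the 8740 tested genes with a window, 19.4%. The 4 matches are shown because they include the single gene that passed the test and genes that did not. Each sequence runs 5′ to 3′ in the direction of transcription, and capitals mark the core.
GCLM (chr1:93909445-93909474, minus strand): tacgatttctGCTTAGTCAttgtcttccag
GSTP1 (chr11:67583736-67583765, plus strand): gccggcgccgTGACTCAGCactggggcgga
SLC3A2 (chr11:62881652-62881681, plus strand): cgagggtgggTGACTCAGCgtcctccttcc
MGST1 (chr12:16347135-16347164, plus strand): ggggacatcgTGACAAAGCaaattgtctgg

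With the first transcribed base as 0, the core began at -34 in GCLM, -66 in GSTP1, -37 in SLC3A2 and 30 in MGST1. GCLM held it on the strand opposite to transcription. In GSTP1 and SLC3A2 the core also contained the AP-1 letters TGANTCA, so that the matches of both motifs overlap there. GCLC had a window in the table with no match to the core, which says only that these letters are absent from that window. SLC3A2 had 3 windows in the table and MGST1 also 3, and the core stood in 1 window of each. The amino acid response letters TGATGNAA were found in the window of 1 of the 6 genes, SLC3A2, beginning 37 bases after the start, against 4.46% of all genes. A match of letters is a description and not a shown binding site.

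With LIG, GCLM rose, and it was the single member of the 8 tested that passed the test over all genes (limma on log2(FPKM + 1), Benjamini-Hochberg adjusted at 0.05, two-sided). SLC7A11 had a larger difference and missed the threshold. SLC3A2 and GSR had smaller differences in the same direction, and GCLC a slight one, and none of the 3 passed. GSS, GSTP1 and ABCC1 had values that overlapped between the groups. The share of all tested genes called higher was 0.187%, against 1 of these 8; 0.505% were called lower and 0.692% in either direction. Of the 8, 7 did not pass, none was called lower, and all 8 had a log2 change above 0, as did 60.9% of all tested genes. Their median log2 change was 0.22, beside 0.025 over all tested genes.

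**Figure D1:**
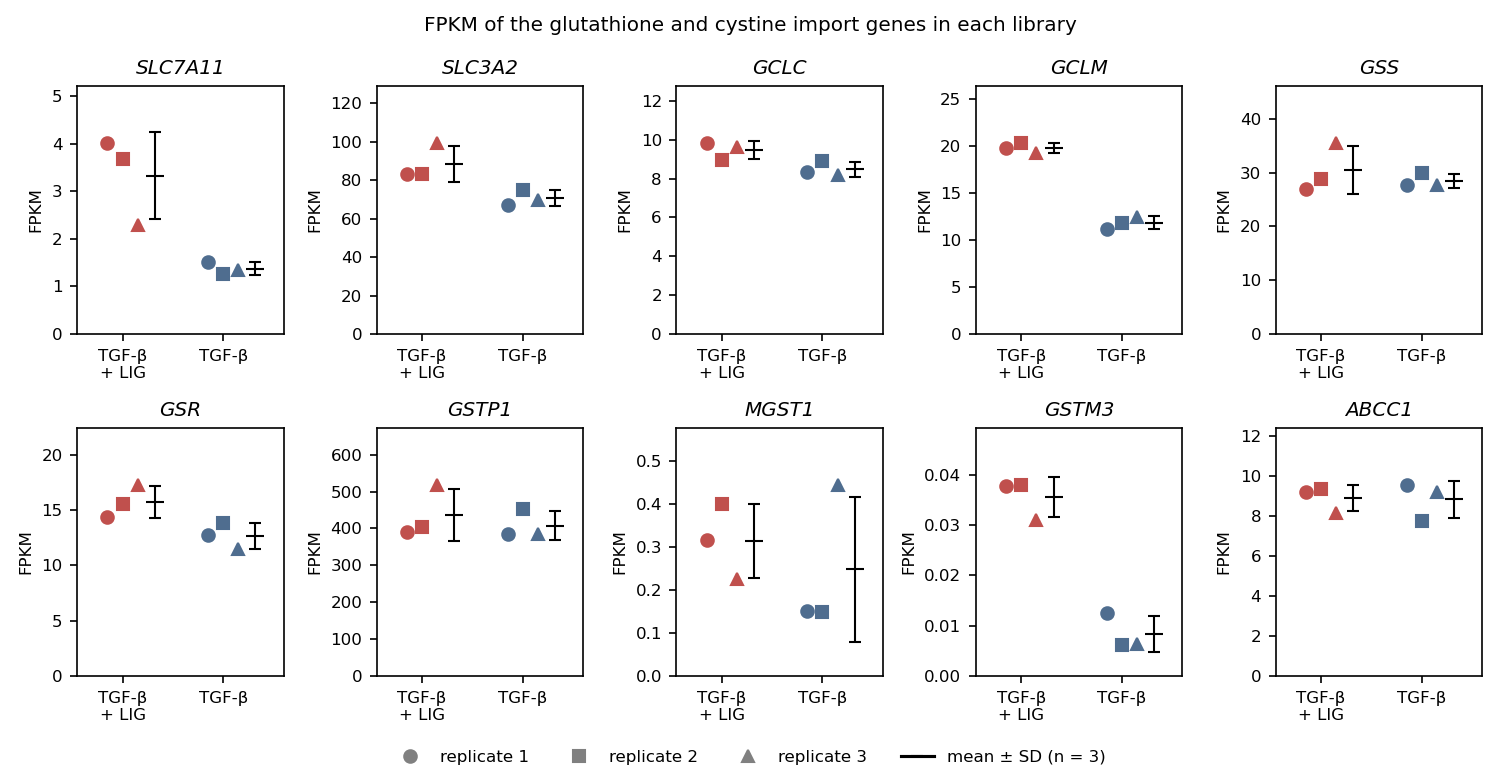
FPKM (y axis, from 0, a separate scale for each gene) of the 10 genes in the 3 libraries of TGF-β with LIG (left, red) and the 3 of TGF-β alone (right, blue); symbols mark replicates, and the black bar is the mean ± SD. GCLM lies between 19.2 and 20.3 FPKM with LIG, above all TGF-β libraries, and replicate 3 of the LIG group is the lowest of its group for SLC7A11 and the highest for SLC3A2, GSS, GSR and GSTP1.

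The light chain of the cystine transporter, SLC7A11 (ENSG00000151012.13, chromosome 4, 138164097 to 138242349), was at 4.01, 3.68 and 2.29 FPKM in LIG replicates 1 to 3, against 1.52, 1.26 and 1.34 FPKM in TGF-β replicates 1 to 3. All LIG libraries were above all TGF-β libraries, with LIG replicate 3 well below the others of its group. The means were 3.33 ± 0.92 FPKM with LIG and 1.37 ± 0.13 FPKM with TGF-β (SD, n = 3 each), a ratio of 2.42. On the log2(FPKM + 1) scale, which understates the change of a gene at this level, the difference was 0.85 ± 0.15 (SE; 95% interval 0.50 to 1.19), the 6th largest rise of the 10695 genes. Its adjusted p of 0.0596 missed the threshold. The coefficient of variation was 27.5% in the LIG group and 9.57% in the TGF-β group.

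The call of SLC7A11 turned on the settings and on 1 library. Without LIG replicate 3 the log2 change was 1.03 (adjusted p = 0.00326), and without any other single library the adjusted p lay between 0.174 and 0.28. In that fit 0.224% of all genes were called higher. It also passed with a pseudocount of 0.1 (adjusted p = 0.0482), with quantile normalization (adjusted p = 0.0452) and with limma voom on recovered fragments (adjusted p = 0.0449), where 0.196%, 0.299% and 0.196% of all genes were called higher. With library quality weights its adjusted p was 5.78e-06 and with summed FPKM as a covariate 3.64e-05, settings that called 10.4% and 3.12% of all genes higher. It did not pass as TPM (adjusted p = 0.125), with the replicate block (adjusted p = 0.0664) or with no filter on low values (adjusted p = 0.276). A pseudocount of 0.5 (adjusted p = 0.0525) and median centring (adjusted p = 0.0555) also left it above the threshold. So did limma without trend (adjusted p = 0.0573) and with robust empirical Bayes (adjusted p = 0.0599). SLC7A11 rested on 479 to 1510 fragments per library, so that counting error is small beside the spread among the LIG libraries. Its antisense neighbour SLC7A11-AS1 shares 865 exonic bases with it on the opposite strand, and averaged 0.0101 FPKM.

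SLC3A2, the heavy chain that carries SLC7A11 and several other amino acid transporters to the cell surface (ENSG00000168003.16, chromosome 11, 62856102 to 62888875), was at 83.3, 83.3 and 99.3 FPKM in LIG replicates 1 to 3, against 67.2, 75.2 and 69.9 FPKM in TGF-β replicates 1 to 3. The groups did not overlap, with LIG replicate 3 the highest library. The log2 change was 0.32 ± 0.09 (95% interval 0.11 to 0.52, ratio of means 1.25), and it did not pass (adjusted p = 0.284). Without LIG replicate 3 the log2 change was 0.233, and without TGF-β replicate 2 it was 0.36. The heavy chain stood far above the light chain: SLC7A11 per SLC3A2, both in FPKM, was 0.0481, 0.0442 and 0.023 in LIG replicates 1 to 3, against 0.0226, 0.0168 and 0.0192 in TGF-β replicates 1 to 3. LIG replicate 3 thus lay just above TGF-β replicate 1. The log2 ratio differed by 0.92 between the groups (exact permutation test, two-sided p = 0.1, the smallest that 3 against 3 libraries can give). With 1 FPKM added to both genes the difference was 0.528 (exact permutation p = 0.3), and without LIG replicate 3 it was 1.25.

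Among the synthesis enzymes, GCLM, the modifier subunit of glutamate-cysteine ligase (ENSG00000023909.9, chromosome 1, 93885205 to 93909456), was at 19.7, 20.3 and 19.2 FPKM in LIG replicates 1 to 3, against 11.1, 11.8 and 12.5 FPKM in TGF-β replicates 1 to 3. The groups were well apart and each was tight, with coefficients of variation of 2.72% with LIG and 5.82% with TGF-β. The ratio of means was 1.67 and the log2 change 0.70 ± 0.07 (SE; 95% interval 0.55 to 0.85; limma adjusted p = 0.00528). GCLM passed in each of the 6 fits that left out a library, with adjusted p from 0.004 to 0.0451, and its log2 change lay between 0.66 and 0.73 in them.

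GCLC, the catalytic subunit of the same ligase (ENSG00000001084.12, chromosome 6, 53497341 to 53616970), was at 9.82, 8.94 and 9.62 FPKM in LIG replicates 1 to 3, against 8.35, 8.89 and 8.19 FPKM in TGF-β replicates 1 to 3. The lowest LIG library was just above the highest TGF-β library. Its log2 change was 0.14 ± 0.07 and did not pass (adjusted p = 0.633), with a 95% interval of -0.011 to 0.30 that lay wholly below that of GCLM. The ratio of GCLM to GCLC, in FPKM, was 2.01, 2.27 and 2.00 in LIG replicates 1 to 3, against 1.33, 1.33 and 1.52 in TGF-β replicates 1 to 3. It averaged 2.09 ± 0.15 with LIG and 1.40 ± 0.11 with TGF-β, without overlap (log2 difference 0.58; exact permutation test, two-sided p = 0.1, again the smallest possible). These are ratios of transcript levels, and protein was not measured. GCLC shares 529 exonic bases on its own strand with the long non-coding gene AL033397.1 in GENCODE release 29, and the handling of such fragments is not given in the sources used here.

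GSS, glutathione synthetase, which adds glycine in the last step (ENSG00000100983.10, chromosome 20, 34928433 to 34956027), was at 27.0, 28.8 and 35.5 FPKM in LIG replicates 1 to 3, against 27.7, 29.95 and 27.7 FPKM in TGF-β replicates 1 to 3. The groups overlapped, and LIG replicate 3 alone stood above the rest. The log2 change was 0.085 ± 0.101 (95% interval -0.15 to 0.32, adjusted p = 0.927). It was -0.027 without LIG replicate 3 and 0.121 without TGF-β replicate 2.

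GSR, the NADPH-dependent reductase that turns oxidised glutathione back to its reduced form (ENSG00000104687.13, chromosome 8, 30678061 to 30727999), was at 14.4, 15.6 and 17.2 FPKM in LIG replicates 1 to 3, against 12.7, 13.8 and 11.5 FPKM in TGF-β replicates 1 to 3. The groups did not overlap, though LIG replicate 1 and TGF-β replicate 2 were close. The log2 change was 0.29 ± 0.09 (95% interval 0.083 to 0.50), the ratio of means 1.24, and it did not pass (adjusted p = 0.354). Without LIG replicate 3 the log2 change was 0.227, and without TGF-β replicate 2 it was 0.351.

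**Figure D2:**
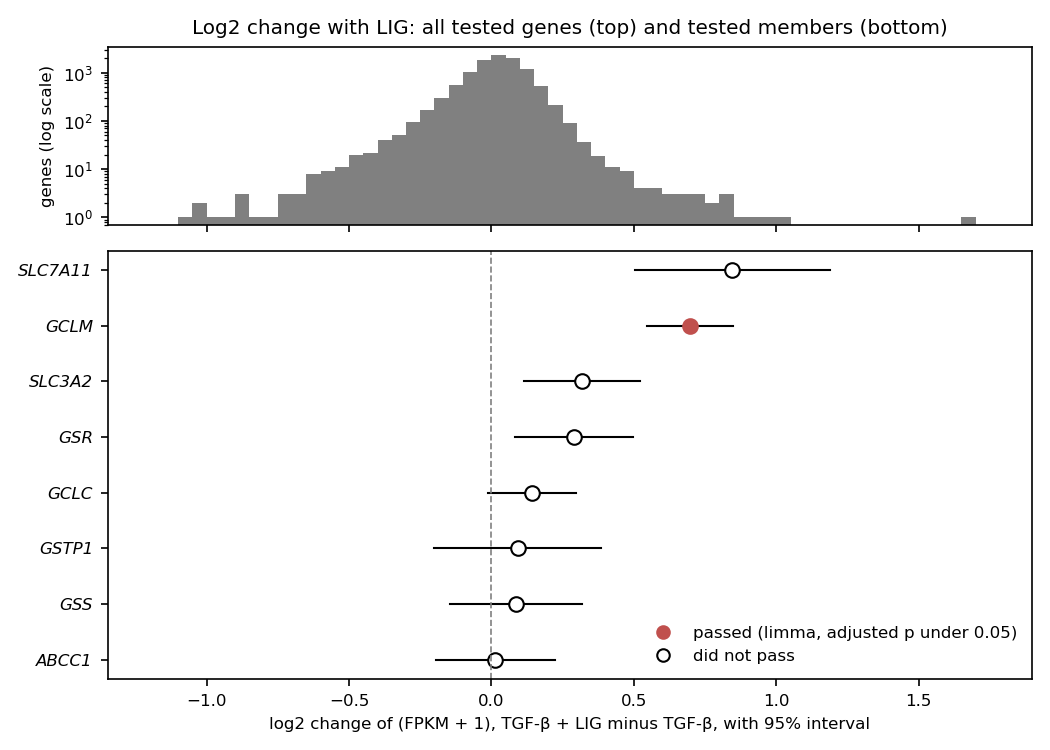
Top, histogram of the log2 change of (FPKM + 1), TGF-β with LIG minus TGF-β, for all 10695 tested genes (log count axis); bottom, the same quantity for the 8 tested members with 95% intervals from limma. The interval of GCLM runs from 0.55 to 0.85, that of SLC7A11 is wider, from 0.50 to 1.19, and those of GCLC, GSTP1, GSS and ABCC1 include 0.

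Of the conjugating enzymes, GSTP1 alone was abundant. GSTP1, the pi-class glutathione transferase (ENSG00000084207.16, chromosome 11, 67583595 to 67586656), was at 390, 404 and 517 FPKM in LIG replicates 1 to 3, against 385, 453 and 384 FPKM in TGF-β replicates 1 to 3. Its mean was above those of 99.1% of tested genes. The groups overlapped, with LIG replicate 3 and TGF-β replicate 2 high, and the log2 change was 0.093 ± 0.127 (95% interval -0.20 to 0.39, adjusted p = 0.943). Without LIG replicate 3 it was -0.034, and without TGF-β replicate 2 it was 0.171.

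MGST1, a membrane-bound transferase (ENSG00000008394.12, chromosome 12, 16347142 to 16609259), was below the filter, at 0.318, 0.400 and 0.227 FPKM in LIG replicates 1 to 3, against 0.151, 0.150 and 0.444 FPKM in TGF-β replicates 1 to 3. These are 40, 50 and 29 fragments with LIG, against 19, 19 and 56 with TGF-β, and the highest and the lowest values both belong to the TGF-β group. GSTM3, a mu-class transferase (ENSG00000134202.10, chromosome 1, 109733932 to 109741038), rested on 6, 6 and 5 fragments in LIG replicates 1 to 3, against 2, 1 and 1 in TGF-β replicates 1 to 3. That makes 17 fragments over the LIG libraries (exact Poisson 95% interval 9.9 to 27.2), against 4 over the TGF-β libraries (1.09 to 10.2). The libraries did not overlap. The intervals, which cover counting error only, overlapped slightly, from 9.9 to 10.2, which is not a test of the difference. Neither gene was tested in the main comparison. With no filter on low values neither passed, but the 1 FPKM added before the log flattens differences at such levels. That fit therefore cannot show whether these genes changed.

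ABCC1, the pump that exports glutathione conjugates (ENSG00000103222.18, chromosome 16, 15949577 to 16143074), was at 9.21, 9.35 and 8.14 FPKM in LIG replicates 1 to 3, against 9.53, 7.76 and 9.17 FPKM in TGF-β replicates 1 to 3. The groups overlapped fully. The log2 change was 0.014 ± 0.090 with a 95% interval of -0.19 to 0.22 (adjusted p = 0.991), and its sign differed between settings.

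Across the set, 5 of the 8 tested members (SLC7A11, SLC3A2, GCLC, GCLM and GSR) had all LIG libraries above all TGF-β libraries, which held for 9.07% of all tested genes. None had all LIG libraries below, which held for 6.73% of all tested genes. Unadjusted p was under 0.05 for 4 of the 8, and for 8.41% of all tested genes. In order of level, GSTP1, SLC3A2 and GSS led in both groups. GCLM (19.2 to 20.3 FPKM) lay above GSR (14.4 to 17.2 FPKM) in every LIG library, whereas their ranges overlapped with TGF-β alone (11.1 to 12.5 FPKM for GCLM and 11.5 to 13.8 FPKM for GSR). GCLC and ABCC1 overlapped in both groups, and SLC7A11 was the lowest of the tested members in both.

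**Figure D3:**
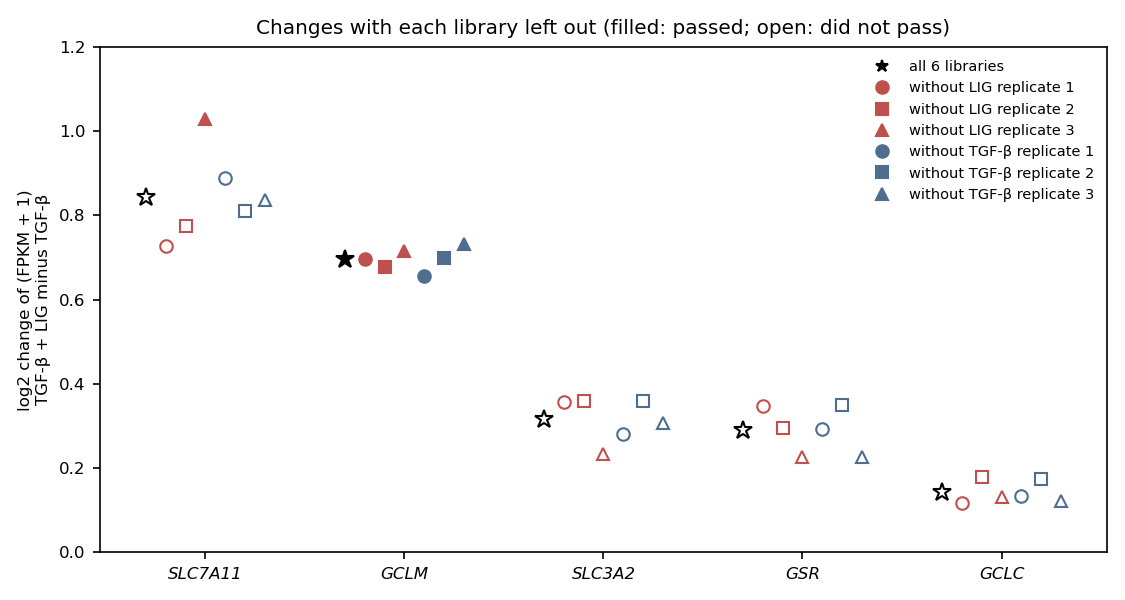
Log2 change of (FPKM + 1), TGF-β with LIG minus TGF-β, for 5 members with all 6 libraries (star) and with each library left out; filled symbols passed and open symbols did not. GCLM is filled throughout, SLC7A11 is filled only without LIG replicate 3, and SLC3A2, GSR and GCLC are open throughout.

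A pair of libraries stood apart from the rest, LIG replicate 3 and TGF-β replicate 2, and in both the departure of a gene followed its length. LIG replicate 3 was above the mean of the other LIG libraries by a median of 0.35 on the log2(FPKM + 1) scale for the 493 tested genes of up to 1000 bases, and below it, at -0.25, for the 1206 genes longer than 9000 bases. For TGF-β replicate 2 against the other TGF-β libraries the same medians were 0.22 and -0.13. Across the 10695 genes, which are not independent replicates, Spearman's rho with length was -0.71 for LIG replicate 3 and -0.58 for TGF-β replicate 2, and it was 0.060 for the difference between LIG replicates 1 and 2 and 0.28 for that between TGF-β replicates 1 and 3.

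Among the members, GSTP1, counted over 741 bases, was 0.38 higher in LIG replicate 3 than the mean of the other LIG libraries and 0.24 higher in TGF-β replicate 2 than the mean of the other TGF-β libraries. SLC3A2 (2440 bases), GSS (2987 bases) and GSR (3034 bases) were also above in both libraries. ABCC1 (7250 bases) and SLC7A11 (9742 bases) were below in both, and SLC7A11, at -0.56 in LIG replicate 3, lay further down than the median of genes longer than 9000 bases. GCLM (6387 bases) departed by -0.056 and 0.0074. The between-group change itself had a rho of -0.16 with length across genes.

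**Figure D4:**
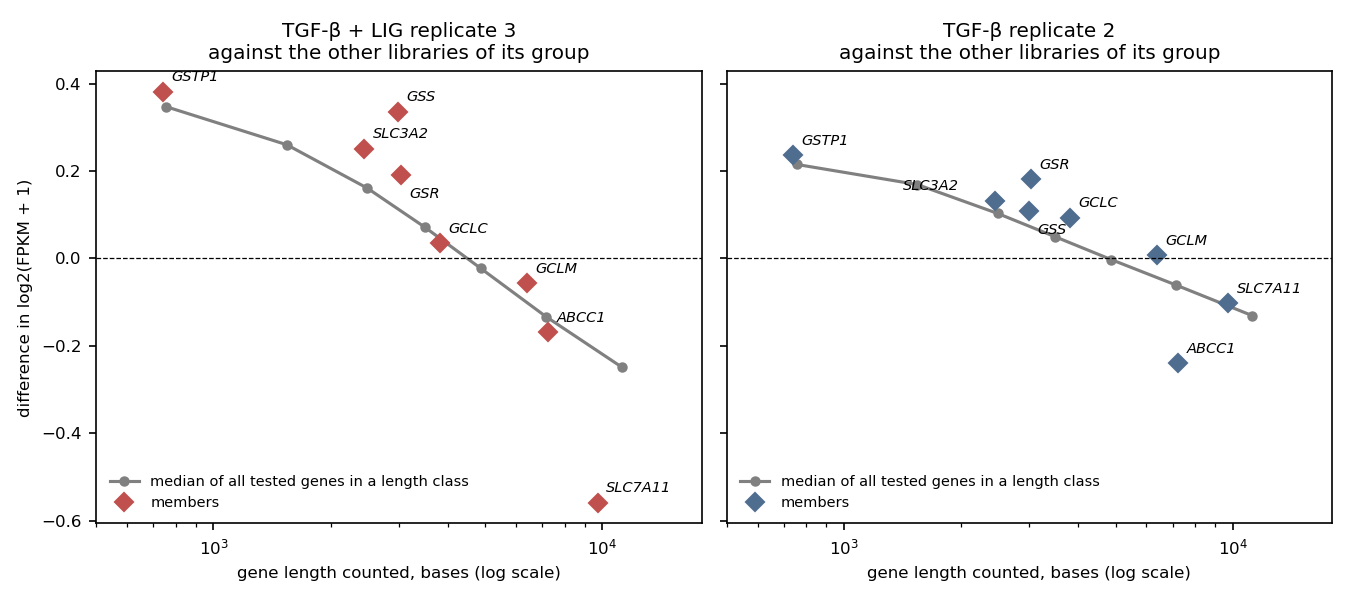
Difference in log2(FPKM + 1) between LIG replicate 3 and the mean of the other LIG libraries (left) and between TGF-β replicate 2 and the mean of the other TGF-β libraries (right), against counted gene length (log axis); grey points are medians of all tested genes in 7 length classes and diamonds are the members. In both panels the grey line falls with length, and SLC7A11 in LIG replicate 3 lies at -0.56, below it.

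With the trend on length removed in each library, an alternative chosen after seeing the data, 3 of the 8 members passed: GCLM (log2 change 0.69, adjusted p = 0.000383), SLC7A11 (0.85, adjusted p = 0.00187) and SLC3A2 (0.28, adjusted p = 0.00792). GSR was at 0.26 (adjusted p = 0.0807) and GCLC at 0.12 (adjusted p = 0.426). Over all genes this setting called 0.748% higher, so that more genes passed in all. Without LIG replicate 3 and TGF-β replicate 2 together, 4 members passed (SLC7A11, SLC3A2, GCLM and GSR), and 1.95% of all genes were called higher. Those libraries were singled out because they differed from the others of their groups, so the spread in that fit is narrower by construction.

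No other tested gene in the lists of glutathione supply, use or export passed. Over all tested genes 0.692% passed in either direction, so the absence of calls in lists this short says little about them. None of the 7 tested genes of the gamma-glutamyl cycle and glutathione breakdown passed (median log2 change 0.079). The smallest adjusted p among them was that of ANPEP, an aminopeptidase that splits cysteinylglycine, at 8.50 ± 1.04 FPKM with LIG and 7.05 ± 0.47 FPKM with TGF-β (adjusted p = 0.542). Next came CNDP2, a cytosolic dipeptidase of the same kind, at 7.49 ± 0.23 FPKM with LIG and 6.84 ± 0.31 FPKM with TGF-β (adjusted p = 0.74).

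None of the 8 tested cysteine supply genes passed either (median log2 change 0.036). SLC1A5, a carrier of glutamine and other neutral amino acids, was at 67.3 ± 2.2 FPKM with LIG and 60.0 ± 1.5 FPKM with TGF-β without overlap (adjusted p = 0.503). CDO1, the dioxygenase that breaks down cysteine, was at 8.47 ± 0.61 FPKM with LIG and 7.51 ± 0.61 FPKM with TGF-β (adjusted p = 0.699).

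In the list of peroxidases and glutaredoxins, 0 of 11 tested genes passed (median log2 change 0.0066). GPX8, a peroxidase of the endoplasmic reticulum, was lower in every LIG library, at 25.01 ± 0.81 FPKM with LIG and 27.9 ± 1.69 FPKM with TGF-β (adjusted p = 0.592). GLRX3 was at 22.4 ± 2.61 FPKM with LIG and 20.4 ± 1.6 FPKM with TGF-β (adjusted p = 0.83). Of 10 tested glutathione transferases outside the members 0 passed, with a median of 0.022. GSTT2B was at 6.78 ± 0.63 FPKM with LIG and 8.12 ± 0.24 FPKM with TGF-β (adjusted p = 0.386), but it has a near-identical copy, GSTT2, with which fragments may be shared. GSTA4 was at 1.67 ± 0.24 FPKM with LIG and 1.99 ± 0.083 FPKM with TGF-β (adjusted p = 0.654).

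No other exporter or mitochondrial carrier passed among 8 tested (median 0.053). ABCC3, an exporter of organic anions, was higher in every LIG library at 6.61 ± 0.44 FPKM, against 5.53 ± 0.42 FPKM with TGF-β (adjusted p = 0.433). ABCC10 was also higher in every LIG library, at 2.09 ± 0.051 FPKM, against 1.82 ± 0.16 FPKM with TGF-β (adjusted p = 0.701). Of the other light chains that pair with SLC3A2, 2 were tested. SLC7A5, a carrier of large neutral amino acids, was at 26.9 ± 1.43 FPKM with LIG and 29.3 ± 2.4 FPKM with TGF-β (adjusted p = 0.793). SLC7A6 was at 18.1 ± 1.86 FPKM with LIG and 17.4 ± 1.01 FPKM with TGF-β (adjusted p = 0.964).

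**Figure D5:**
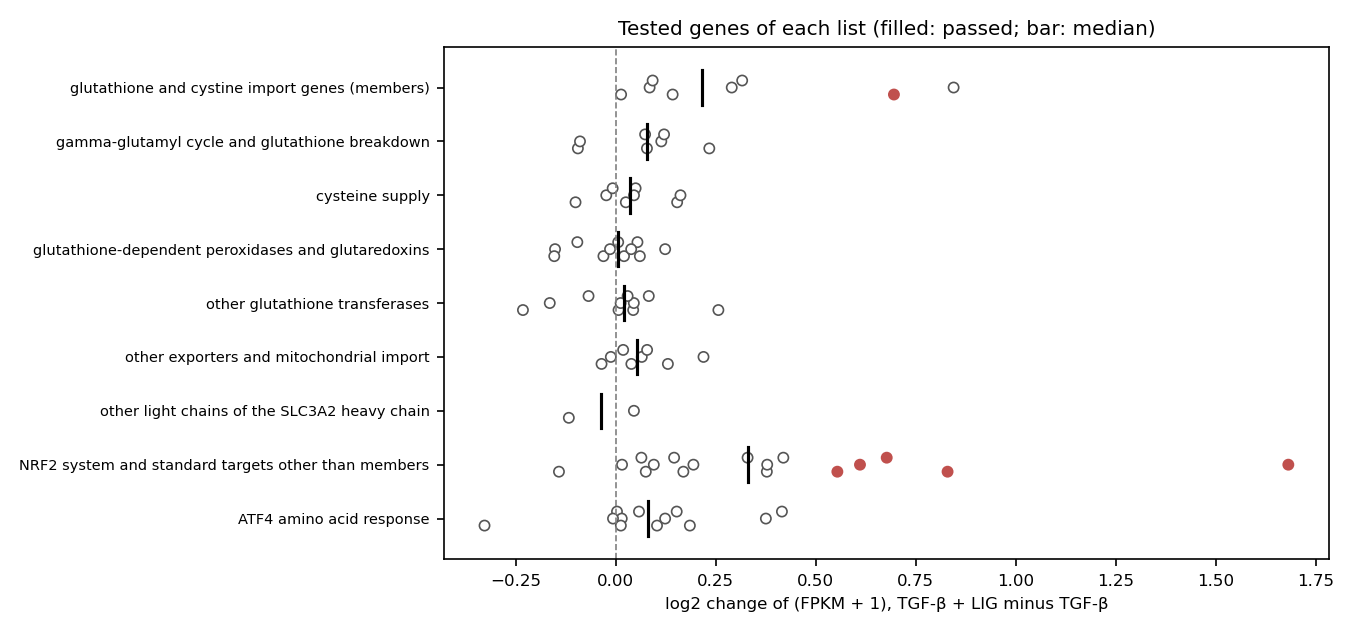
Log2 change of (FPKM + 1), TGF-β with LIG minus TGF-β, of each tested gene in the members and in 8 related lists; filled points passed, open points did not, and the black bar is the median of a list. The members (median 0.22) and the list of NRF2 and its other targets (median 0.33) hold all filled points, and the medians of the remaining lists lie between -0.035 and 0.081.

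The 17 genes of the NRF2 system and its standard targets outside the members had a median log2 change of 0.33, and 5 rose. Of all tested genes, 0.187% were called higher. Malic enzyme ME1, a source of the NADPH that glutathione reduction uses, was at 12.2 ± 0.77 FPKM with LIG and 7.65 ± 0.57 FPKM with TGF-β (log2 change 0.61, adjusted p = 0.0145). NQO1, TXNRD1 and HMOX1 also rose, with log2 changes of 1.68, 0.83 and 0.55 (adjusted p = 0.000854, 0.00185 and 0.029). The calls of HMOX1 and ME1 each held in 2 of the 6 fits that left out a library, while NQO1 and TXNRD1 passed in all 6. The transcripts of NRF2 itself (NFE2L2) were at 22.3 ± 1.15 FPKM with LIG and 22.0 ± 1.25 FPKM with TGF-β, a gene chosen after its values were seen.

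Of 12 tested genes of the ATF4 amino acid response, which can also drive SLC7A11, 0 passed (median log2 change 0.081). With 0.692% of all tested genes passing in either direction, that count says little about so short a list. CEBPB, a partner of ATF4, was at 35.1 ± 4.89 FPKM with LIG and 26.0 ± 2.23 FPKM with TGF-β without overlap (adjusted p = 0.231). PPP1R15A, which directs dephosphorylation of eIF2α, was at 41.8 ± 4.23 FPKM with LIG and 31.85 ± 0.059 FPKM with TGF-β without overlap (adjusted p = 0.118). ATF4, chosen after its values were seen, was at 27.0 ± 3.68 FPKM with LIG and 26.6 ± 1.49 FPKM with TGF-β.

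The genes whose levels over the 6 libraries were most like those of GCLM, by Pearson's r of log2(FPKM + 1), were DPF2 (0.996), SERPINB2 (0.991) and TXNRD1 (0.990). SERPINB2, a serpin that inhibits plasminogen activators, was at 8.02, 7.81 and 7.57 FPKM in LIG replicates 1 to 3, against 5.22, 5.52 and 5.36 FPKM in TGF-β replicates 1 to 3. TXNRD1, thioredoxin reductase, was at 77.5, 75.6 and 73.1 FPKM in LIG replicates 1 to 3, against 42.2, 41.7 and 42.1 FPKM in TGF-β replicates 1 to 3. For SLC7A11 the most alike were USP7 (0.997), IRS2 (0.984) and TAF5L (0.982), and for GCLC they were TRAPPC2 (0.994), TOB1 (0.983) and PLAA (0.982). The measure ignores the size of a difference: the log2 change of USP7 was 0.12 and that of DPF2 0.11, and neither passed (adjusted p = 0.658 and 0.691).

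The libraries held 38401783 to 39260090 fragments, and a tested member had between 479 and 15044 fragments in a library. Summed FPKM was 362034 in LIG replicate 3 and 348518 in TGF-β replicate 2, against 324022 to 328949 in the other 4 libraries. Pearson correlations of log2(FPKM + 1) between libraries lay between 0.9875 and 0.998. Of 11 stellate cell and myofibroblast markers measured, 8 averaged at least 1 FPKM, with sums of 2550 to 2920 FPKM with LIG and 2770 to 2960 FPKM with TGF-β. VIM made up most of the sum, at 1870 FPKM with LIG and 1830 FPKM with TGF-β. The collagen gene COL3A1 fell (9.96 FPKM with LIG and 20.3 FPKM with TGF-β, log2 change -0.96, adjusted p = 0.0144). COL1A1 was at 503 FPKM with LIG and 665 FPKM with TGF-β, TAGLN at 271 FPKM with LIG and 318 FPKM with TGF-β, and PDGFRB at 3.32 FPKM with LIG and 4.99 FPKM with TGF-β, and none of these passed (adjusted p = 0.118, 0.509 and 0.257). Another collagen gene of the list, COL1A2, went the other way, at 3.87 FPKM with LIG and 2.7 FPKM with TGF-β. ACTA2 was low (2.97 FPKM with LIG and 2.77 FPKM with TGF-β) and DES was near 0 in both groups. Hepatocyte marker sums were 3.3 to 4.88 FPKM with LIG and 3.54 to 4.07 FPKM with TGF-β, nearly all from SERPINA1. Those of Kupffer cells and leukocytes were 14.6 to 16.2 FPKM with LIG and 13.5 to 15.6 FPKM with TGF-β, nearly all from CD68, with PTPRC near 0. Endothelial sums were 0.383 to 0.548 FPKM with LIG and 0.458 to 0.652 FPKM with TGF-β. The cholangiocyte and epithelial sum was lower with LIG, at 11.2 to 11.9 FPKM, against 13.6 to 13.9 FPKM with TGF-β. It came mostly from SOX9 (10.1 FPKM with LIG and 11.8 FPKM with TGF-β), and EPCAM and KRT19 averaged at most 0.0497 FPKM in either group. In bulk RNA, fewer cells of a type and less RNA per cell cannot be told apart. The part of these markers in the results was not tested.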

How the data were processed

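Polyadenylated RNA of LX-2 cells was measured in 6 libraries, and groups were read from the sample titles. The table deposited by the authors gives FPKM values for each library, per the file headers. Named without roles in the submitters' processing notes are HISAT2 2.1.0, fastp, DESeq2 and GRCh38.p13; counting tool, annotation and use of strand are not given in the sources used here.

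Values of genes with a mean of at least 1 FPKM over the 6 libraries were put on the log2(FPKM + 1) scale and compared by limma 3.58.1 (group only, empirical Bayes with trend, two-sided, LIG minus TGF-β), adjusted by Benjamini-Hochberg over all 10695 tested genes at 0.05. Each of the 8 tested members averaged at least 1 FPKM in both groups. No scaling was added. The tests were run on simulated data first. Subunit ratios were tested by exact permutation. Poisson intervals are exact and cover counting error only.

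FPKM values are whole multiples of a step per gene, from which fragments, gene lengths and library totals were recovered for all 22701 genes (tolerance 0.01 fragments, coarser for the few with the finest steps). Gene places came from GENCODE release 29 (GRCh38), promoters from RefSeq (GRCh38.p14).

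All members were named, with each list's passing genes or otherwise the 2 with the smallest adjusted p, and the 3 genes most like SLC7A11, GCLC and GCLM, loci without a name and chromosome Y left out. ATF4 and NFE2L2 were added. One passing list gene is not reported here. The members and lists were chosen with earlier results of these data known. Replicate numbers were not used as a block, since the labels do not say that they pair libraries. Alternatives covered the pseudocount, filter, scaling, weights, a block, a covariate, voom on recovered fragments and each library left out. Python 3.11.15 and R 4.3.3 were used.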

Additional observations from a re-analysis of the deposited data

How the results depend on the processing

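GCLM passed under all 20 planned and 1 added alternatives, with adjusted p of at most 0.0451 and log2 changes from 0.66 to 0.74. The other members had no call to lose. Members called numbered 2 with a pseudocount of 0.1, 3 with quantile normalization, 5 with library quality weights, 4 with summed FPKM as a covariate, 4 without both libraries that stand apart, 2 with limma voom, 3 with the length trend removed, and 1 to 2 with 1 library left out; the cause was not tested. Over all genes the count of 74 became 14 without a filter, 1891 with quality weights, 22 with the replicate block, 760 with the covariate, 497 without both libraries, 280 with the length trend removed, and 11 to 93 with 1 library left out. Quality weights called 10.4% of all genes higher and the covariate 3.12%. The 5 calls among 75 other list genes, all higher, became 3 without a filter, 8 as TPM and 3 with the replicate block. Those settings called 0.0617%, 0.804% and 0.206% of all genes in either direction. With 1 library left out the 5 calls became 2 to 6, and 0.103% to 0.87% of all genes were called in either direction. Quality weights called 23 (16 higher and 7 lower) and the covariate 17 (13 higher and 4 lower). Without both libraries 12 passed (9 higher and 3 lower), and with the length trend removed 11 (10 higher and 1 lower). Quality weights, the covariate, leaving out both libraries and removing the length trend called 17.7%, 7.11%, 4.65% and 2.62% of all genes in either direction.

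The log2 change of ABCC1 was -0.0047 as TPM, -0.0019 with quantile normalization, -0.0070 with median centring and -0.0099 without both libraries, and ran from -0.066 to 0.070 with 1 library left out. That of GSS ran from -0.027 to 0.16 and that of GSTP1 from -0.034 to 0.17. The log2 difference of GCLM to GCLC lay between 0.523 and 0.649 with 1 library left out, and that of SLC7A11 to SLC3A2 between 0.723 and 1.25; both kept their sign with 1 FPKM added. Deviations of same-numbered libraries from their group means correlated at 0.469, -0.574 and -0.337 for replicates 1 to 3. LIG replicate 3 and TGF-β replicate 2, which stood apart by gene length, weigh on these values. The correlations therefore cannot show whether the numbers pair libraries. With the replicate block GCLM kept its call (adjusted p = 0.0376). A mean of at least 5 FPKM left SLC7A11 untested. Fits without a library have fewer samples. Few fragments of their own limit MGST1 and GSTM3, with at most 56 in a library.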
